A study of Mus musculus with 12 samples.

Results

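The effect of oxaliplatin on CT26 cells in full medium was read as OXP minus CTR on 6 of the 12 arrays of the series, which are the 3 arrays labelled OXP and the 3 labelled CTR. CT26 is a mouse colon carcinoma cell line, and its total RNA was measured on mouse expression arrays from Affymetrix. For CTR, cells spent 48 hours without drug in medium that held 10% serum and glucose at 1 g/L. OXP cells were kept in that same medium and received oxaliplatin, which the labels give as 10 microM added 24 hours after the medium was changed, while the legend of the study names 40 microM and its methods a range of 10 to 100 microM. The remaining 6 arrays are 3 of cells starved with 1% serum and glucose at 0.5 g/L (STS) and 3 of starved cells that also received oxaliplatin (STS+OXP). All groups are 1 cell line, and whether replicate arrays stem from separate cultures is stated nowhere in the sources used, so p-values measure only the spread between these arrays, which may be technical.

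Oxaliplatin is a platinum compound that binds DNA bases and leaves crosslinks which block replication and transcription. Damaged DNA activates kinases that stabilize p53, and p53 in turn switches on genes that halt the cell cycle, repair DNA or kill the cell. Platinum drugs also stress nucleoli, where ribosomes are made, and DNA fragments or damaged cells can set off interferon signalling.

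Values are log2 signals computed by RMA, which corrects the background, equalizes the arrays and merges a probe set's probes into 1 value. Each of 17097 genes was read from 1 probe set, and a gene is said to have risen or fallen where limma, fitted to all 12 arrays, gave a p under 0.05 after Benjamini-Hochberg adjustment over the whole table. A level is called at the control level where a group's mean was no higher than the brightest of 22 control probe sets without a target, which lay between 3.21 and 3.72 over the 12 arrays. In bulk RNA, fewer cells in a given state and less RNA per cell cannot be told apart.

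Among the drug-treated arrays 2 stood apart. The 3′ minus 5′ log2 signal of the control transcript Gapdh was 3.85 in OXP 1 and -0.12 to 0.28 for the remaining 11 arrays, and the ribosomal RNA control of OXP 1 was at 6.38 against at least 10.32 on the others. OXP 2 lay closer to the STS+OXP arrays, at a mean root-mean-square distance of 0.173 over genes, than to OXP 1 or OXP 3, at 0.345 and 0.251. The CTR arrays were 0.15 to 0.205 from each other and 0.538 to 0.612 from the OXP arrays. Each result was therefore recomputed without OXP 1 and without OXP 2.

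The arrays held little of the colon epithelial programme that the label of the line might lead one to look for. Of 10 markers of colon epithelium, 7 were at the control level in both groups, among them Cdh1, Krt8 and Krt18, while the mesenchymal filament Vim was at 12.26 in CTR and 12.23 in OXP. Markers of lymphocytes (7) and endothelium (7) gave 0 calls, or 1 for endothelium without OXP 2, with summed levels of 6.48 to 6.65 in CTR and 6.37 to 6.52 in OXP for lymphocytes and 5.65 to 5.80 and 5.67 to 5.79 for endothelium. Of 8 macrophage markers, 2 rose, Cd14 by 1.17 and Cd68, at the control level in CTR, at least 1.68-fold, and the summed level moved from 7.54 to 7.71 in CTR to 8.15 to 8.74 in OXP, while Ptprc, Csf1r, Lyz2, Itgam and Fcgr1 were at the control level in both groups. Of 8 mesenchymal markers, S100a4 rose by 0.21, a call lost without CTR 2, CTR 3, OXP 1 or OXP 3, and the cadherin Cdh2 fell by 1.68, with summed levels of 13.18 to 13.23 and 13.19 to 13.33. The part of other cells in any result was not tested.

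Oxaliplatin moved 5377 genes, which is 31.4% of those tested. Of these 2995 (17.5%) rose and 2382 (13.9%) fell, and 1185 moved at least 2-fold, 656 up and 529 down. The 3 OXP arrays did not overlap the 3 CTR arrays for 6520 genes (38.1%), and for 5128 of the 5377 genes called. Without OXP 1 there were 5496 calls (32.1%) and without OXP 2 there were 5279 (30.9%), and 4476 genes were called in the same direction in all 3 fits. Of the 1185 genes that moved at least 2-fold, 1180 were called in both reduced fits. The median change over all genes was -0.01.

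The 12 genes that rose most are not one pathway. Dcxr, a reductase of sugars and dicarbonyls that is counted among p53 targets, read 4.64, 4.61 and 4.55 in CTR and 9.34, 9.45 and 9.73 in OXP, a rise of 4.91 (SE 0.0951, limma adjusted p = 1.51e-12). Cryab, a small heat shock chaperone, read 2.71, 3.05 and 3.10 in CTR and 8.15, 7.85 and 7.85 in OXP, and since CTR was at the control level the rise is at least 19.5-fold. The other probe sets for Cryab changed by 3.70 and -0.59, at mean signals of 4.80 and 6.03. The set that went down was thus above the control level. The arrestin-family protein Txnip, an inhibitor of thioredoxin and of glucose uptake, read 3.96, 4.74 and 4.58 in CTR and 8.97, 8.32 and 8.87 in OXP. In all 3 genes every OXP array lay far above every CTR array, though only genes without overlap between the groups were ranked.

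Several genes of this group were off or nearly off in CTR. The annexin Anxa8 rose at least 11.0-fold, the carboxylesterase Ces2e at least 6.85-fold, Csprs at least 8.55-fold and Cd80, the costimulatory ligand of CD28 and CTLA-4, at least 8.48-fold. The rise of Cd80 was read from 1 probe set of 4, and the others had mean signals of 3.68, 3.25 and 2.93, within or below the range of the control level, where a change cannot be read. Aldh1a1, which oxidizes retinal, rose by 3.80, and Pik3r3, a regulatory subunit of PI3 kinase, by 3.32. Ogn, a small leucine-rich proteoglycan, read 4.92 ± 0.23 in CTR and 8.73 ± 1.45 in OXP (mean and SD, n = 3), with 10.40 in OXP 2. OXP 2 stood above the other drug-treated arrays for Ogn and for Csprs, and the rise of Ogn was 3.81 with all arrays and 2.97 without OXP 2.

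The genes that fell most belong to division and to amino acid and carbon metabolism. Those of division were Fbxo5, an inhibitor of the ubiquitin ligase that ends mitosis, the kinase Aurkb, the cyclin Ccna2, the thymidine kinase Tk1 and the replication licensing factor Cdc6, which fell by 3.15, 2.97, 2.94, 2.94 and 2.91. Those of metabolism were Trib3, Shmt2, Slc7a5, Bcat1 and Pck2, described with their pathway below. Stbd1, which ties glycogen to membranes, read 7.68, 7.28 and 7.58 in CTR and 4.07, 4.18 and 3.73 in OXP, and the secreted carbonic anhydrase Car6 read 6.17, 6.17 and 6.25 in CTR and 3.15, 3.11 and 2.88 in OXP. For Car6, OXP was at the control level, so the fall is at least 6.85-fold.

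**Figure D1:**
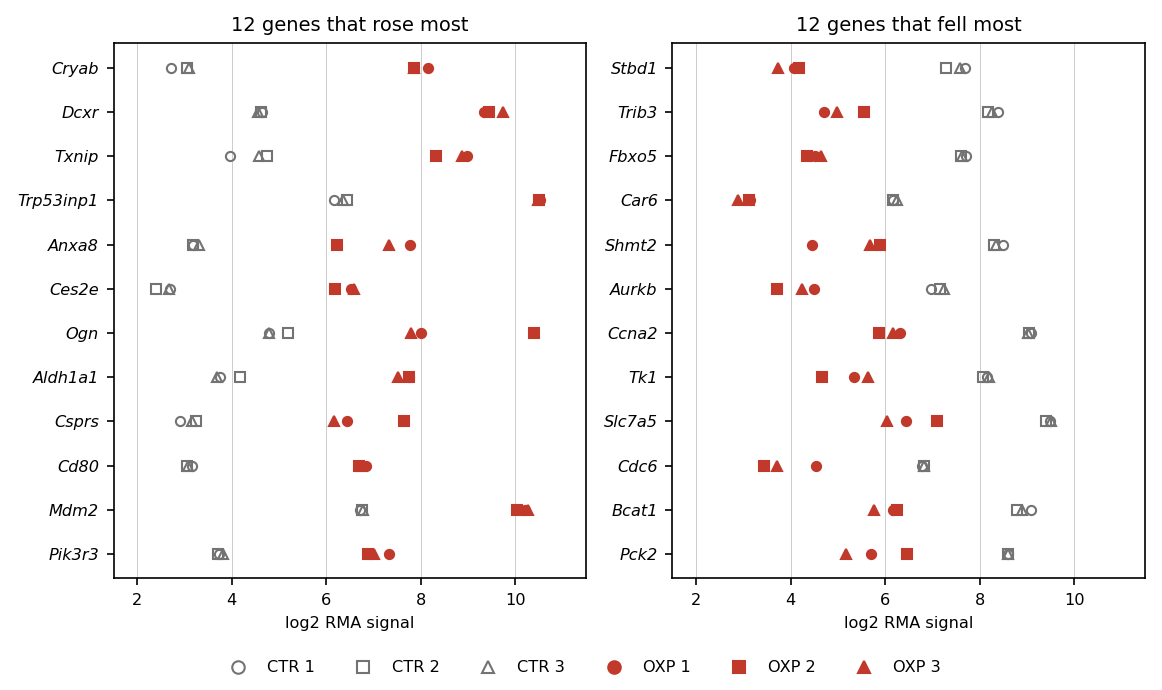
Log2 RMA signal of the 12 strongest rises and 12 strongest falls, with 1 symbol per CTR array (open) and OXP array (filled). The groups are apart in every row because only genes without overlap between the groups were ranked. The square of OXP 2 stands off from the other OXP arrays for Ogn and Csprs.

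Targets of p53 on the list used here rose. Of 31 measured members of the list, 23 rose and 0 fell, with a median change of 1.17 against -0.01 over all genes, and the counts were 25 and 0 without OXP 1 and 24 and 0 without OXP 2. Gadd45a was not on this list. It was counted with the genes that signal DNA damage, described below, and fell by 2.61. The median over the list lay 1.49, 1.33 and 1.17 above the CTR mean in OXP 1, 2 and 3. Mdm2, the ubiquitin ligase that degrades p53, read 6.72, 6.76 and 6.77 in CTR and 10.21, 10.04 and 10.26 in OXP, a rise of 3.42 (SE 0.0984, limma adjusted p = 5.66e-11). Cdkn1a, which encodes the p21 inhibitor of cyclin-dependent kinases, read 7.85, 7.92 and 7.78 in CTR and 10.87, 10.71 and 10.83 in OXP, a rise of 2.95 (SE 0.0691, limma adjusted p = 8.83e-12). In both genes every OXP array lay above every CTR array, while the groups did not overlap for 38.1% of all genes.

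Further members covered other branches of the p53 response. Trp53inp1, which links p53 to autophagy and cell death, read 6.17, 6.44 and 6.35 in CTR and 10.52, 10.51 and 10.48 in OXP. The receptor Eda2r read 3.80, 4.11 and 4.23 in CTR and 7.34, 7.30 and 7.10 in OXP. Fas, the receptor for the Fas ligand, read 3.64, 3.94 and 3.81 in CTR and 7.04, 6.16 and 6.31 in OXP. Fas was highest in OXP 1, and its rise was 2.71 with all arrays and 2.44 without OXP 1. Of members singled out after their values were seen, the epoxide hydrolase Ephx1 rose by 2.99 and the cyclin Ccng1 by 2.24, whereas Bbc3 and Pmaip1, which encode the killer proteins PUMA and NOXA, changed by 0.47 (limma adjusted p = 0.0579) and 0.03 (limma adjusted p = 0.791).

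Genes of cell death moved in both directions and by less. Of 10 pro-apoptotic BCL2 family genes, 3 rose (30.0%) and 2 fell (20.0%), against 17.5% and 13.9% of all genes. Without OXP 2 the counts were 2 and 1, near those shares. The largest changes were the fall of Bok by 0.79 and the rise of Bcl2l11, which encodes BIM, by 0.76. Bcl2l11 read 6.10, 6.18 and 6.33 in CTR and 6.18, 7.34 and 7.37 in OXP, so OXP 1 overlapped CTR, and its call was lost without CTR 1, CTR 2, OXP 2 or OXP 3. Of 6 anti-apoptotic members, Bcl2l1, which encodes BCL-XL, rose by 1.12, Mcl1 rose by 0.53 and Bcl2, at the control level in OXP, fell at least 1.2-fold, a call lost without CTR 1 or CTR 3. Among 21 death receptors, caspases and inhibitors, 9 rose and 5 fell, or 9 and 2 without OXP 2, led by Fas, the apoptosome subunit Apaf1 (1.72) and the caspases Casp12 (1.00) and Casp6 (0.93).

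The genes that carry out DNA repair did not move as 1 block. Of 20 genes of nucleotide excision repair, the pathway that removes platinum adducts, 7 rose (35.0%) and 2 fell (10.0%), or 7 and 3 without OXP 1. The shares over all genes were 17.5% and 13.9%, and the median of the list was 0.04. The rises were led by the nuclease Ercc5, which read 5.33, 5.32 and 4.73 in CTR and 7.57, 7.57 and 7.67 in OXP, followed by the damage sensor Xpc (1.09), Uvssa (1.00) and the helicase Ercc3 (0.80). Of 14 genes of translesion synthesis and mismatch repair, 5 rose and 4 fell, with rises of the bypass polymerases Polk (1.79) and Rev1 (1.09) and falls of the mismatch repair genes Pms2 (-1.09) and Pms1, which was at the control level in OXP and fell at least 1.51-fold. By contrast, 21 of 33 Fanconi and homologous recombination genes fell and 0 rose, with Usp1 at -2.11, Brca1 at -1.86, Rad51ap1 at -1.77 and Fancb at -1.65.

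Genes that signal DNA damage fell too. Of 23 measured, 15 fell and 3 rose, with a median of -0.52. The checkpoint kinase Chek1 read 5.94, 5.97 and 5.90 in CTR and 4.06, 3.73 and 3.73 in OXP, and its upstream kinase Atr read 6.47, 6.47 and 6.45 in CTR and 5.02, 4.57 and 4.44 in OXP. The histone H2ax fell by 1.74. Gadd45a, often used as a marker of DNA damage, read 8.63, 8.17 and 8.19 in CTR and 5.48, 6.68 and 5.01 in OXP, so it fell in every OXP array, least in OXP 2.

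The replication machinery was lower almost without exception. Of 42 genes, 40 fell and 0 rose, with a median of -1.32, 42 without OXP 1 and 39 without OXP 2. Cdc6 read 6.77, 6.82 and 6.83 in CTR and 4.53, 3.44 and 3.72 in OXP, a fall of 2.91 (SE 0.196, limma adjusted p = 7.48e-08). The helicase subunits Mcm5 and Mcm2 changed by -2.48 and -2.01, and the primase-associated polymerase Pola1 by -2.44. The 2 genes not called, Orc4 and Gins3, changed by -0.24 and -0.22. Of 23 genes of nucleotide synthesis, 17 fell and 5 rose, and Dut fell by 1.56, Ppat by 1.46 and Rrm2 by 1.38.

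Mitotic genes fell further. Of 37, 35 fell and 1 rose, with a median of -2.10, and the median per OXP array was -2.11, -1.96 and -2.18. Aurkb, the kinase of the chromosomal passenger complex, read 6.98, 7.16 and 7.24 in CTR and 4.50, 3.72 and 4.25 in OXP. Ccna2 read 9.09, 9.05 and 9.03 in CTR and 6.31, 5.87 and 6.16 in OXP, a fall of 2.94 (SE 0.12, limma adjusted p = 8.12e-10). The spindle motor Kif11 fell by 2.66, and the kinetochore protein Cenpf fell by 2.64. The exceptions were Ckap2, a spindle protein, which rose by 0.75, and Kif23, whose probe set was at the control level in both groups.

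Of the regulators of the G1 phase, more cyclins, E2F factors and pocket proteins fell than rose. Among 21 of them, 12 fell (57.1%) and 4 rose (19.0%), against 13.9% and 17.5% of all genes. The share of rises was thus near that of all genes. The pocket proteins Rb1 and Rbl2, which hold E2F factors in check, rose by 1.87 and 1.64, and the atypical factors E2f7 and E2f8, which repress E2F targets, fell by 1.74 and 1.66. Of 8 inhibitors of cyclin-dependent kinases and the related phosphatase, Cdkn1a and Cdkn2c rose (2.95 and 0.63), and Cdkn2d and Cdkn3 fell (-1.09 and -2.43). That is 25.0% in each direction. Among 11 chromatin proteins that decline in senescent cells, 10 fell and 0 rose, with Uhrf1 at -2.07, Ezh2 at -1.89, Hells at -1.88 and Hmgb2 at -1.80.

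Promoters of these genes were read from the RefSeq windows of GRCm38.p6. Each window holds 250 bases before and 50 after an annotated start, and a gene can have several windows. The windows covered 13605 of the genes tested with 17065 promoters. The cell cycle homology region (CHR), a letter string known from genes of late cell cycle, was searched as TTTGAA or TTCGAA on both strands. It was found in 79.4% of the 34 mitotic promoters and in 15.0% of the promoters of all genes tested. The CCAAT box, searched as CCAAT on both strands, was in 76.5% and 37.6%, and it was also in 86.4% of the 22 windows of reticulum chaperones, in 55.2% of those of the ATF4 list described below and in 53.5% of those of replication. E2F sites, searched as TTTGGCGC or TTTCCCGC, were in 27.9% of the 43 replication promoters, in 0% of the mitotic ones and in 2.29% of all. A match is a string of letters in a window, and binding was not measured. The windows of Kif11 (chr19:37376132-37376431, plus strand) and Cenpf (chr1:189688037-189688336, minus strand) are shown because they hold both the CHR and the CCAAT string, and those of Cdc6 (chr11:98907901-98908200, plus strand) and Mcm5 (chr8:75109259-75109558, plus strand) because they hold an E2F string. The window of Cdc6 lies inside the gene span, which begins at base 98907709. Capitals mark the CHR and CCAAT matches in the first pair and the E2F match in the second pair.
Kif11: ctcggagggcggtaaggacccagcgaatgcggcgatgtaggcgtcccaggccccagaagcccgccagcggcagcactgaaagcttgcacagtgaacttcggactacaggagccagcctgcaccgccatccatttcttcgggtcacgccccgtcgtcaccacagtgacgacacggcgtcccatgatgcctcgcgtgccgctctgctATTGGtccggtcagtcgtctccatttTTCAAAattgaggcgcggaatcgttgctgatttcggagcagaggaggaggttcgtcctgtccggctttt
Cenpf: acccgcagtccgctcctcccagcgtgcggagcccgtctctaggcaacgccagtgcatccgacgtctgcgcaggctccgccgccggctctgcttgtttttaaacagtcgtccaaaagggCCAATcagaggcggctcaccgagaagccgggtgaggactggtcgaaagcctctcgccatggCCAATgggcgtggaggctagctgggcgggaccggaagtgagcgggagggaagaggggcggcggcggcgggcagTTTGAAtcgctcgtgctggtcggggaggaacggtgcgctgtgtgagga
Cdc6: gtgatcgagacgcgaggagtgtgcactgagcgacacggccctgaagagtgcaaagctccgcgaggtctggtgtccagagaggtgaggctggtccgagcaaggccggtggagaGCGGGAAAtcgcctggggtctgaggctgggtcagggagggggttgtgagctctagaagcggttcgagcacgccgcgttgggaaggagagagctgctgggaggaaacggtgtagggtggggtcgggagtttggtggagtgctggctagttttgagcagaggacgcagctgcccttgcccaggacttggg
Mcm5: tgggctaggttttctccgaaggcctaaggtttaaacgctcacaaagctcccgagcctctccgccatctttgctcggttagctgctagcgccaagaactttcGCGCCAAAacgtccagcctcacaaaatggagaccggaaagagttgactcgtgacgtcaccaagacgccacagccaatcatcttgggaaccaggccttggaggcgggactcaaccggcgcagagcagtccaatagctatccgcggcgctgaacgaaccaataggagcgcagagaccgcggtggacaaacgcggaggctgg

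**Figure D2:**
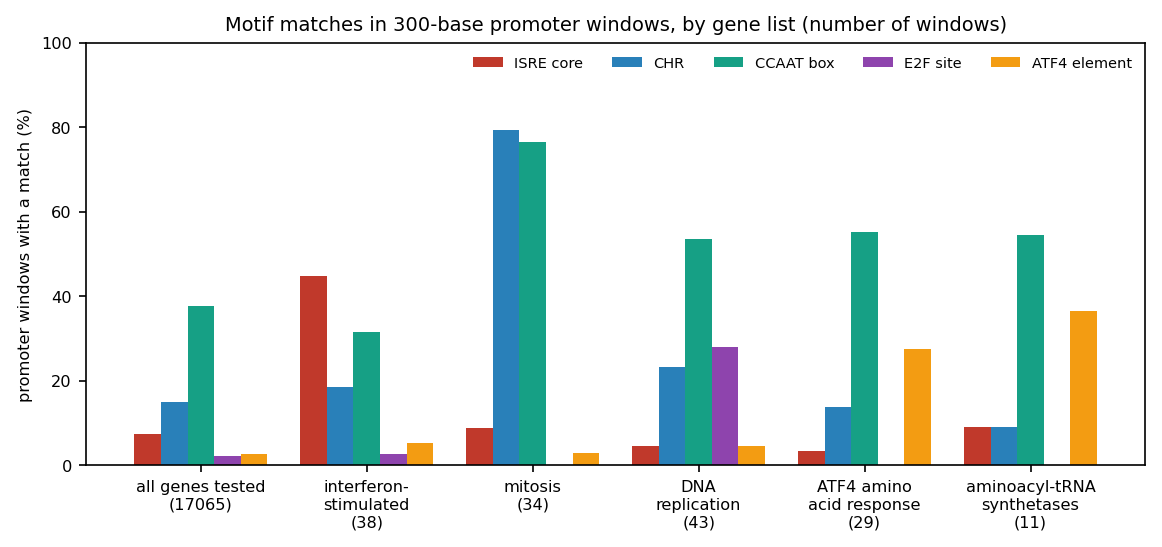
Percent of 300-base promoter windows that hold each motif on either strand, for all genes tested and 5 gene lists, with the number of windows in brackets. The CHR stands at 79.4% in the mitotic windows against 15.0% over all, and the interferon response core at 44.7% in the interferon-stimulated windows against 7.35%.

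Interferon-stimulated genes rose nearly as a set. Of 41 measured, 40 rose and 0 fell, with a median of 1.72, and the counts were 40 and 0 without OXP 1 and 39 and 0 without OXP 2. The list median lay 1.68, 1.88 and 1.63 above CTR in OXP 1, 2 and 3. Gbp2, an interferon-induced GTPase, read 5.59, 5.53 and 5.80 in CTR and 8.79, 8.47 and 8.85 in OXP, a rise of 3.06 (SE 0.101, limma adjusted p = 1.6e-10). Ifit1, which blocks translation of viral RNA, read 9.04, 9.14 and 9.08 in CTR and 11.15, 11.15 and 11.11 in OXP, a rise of 2.05 (SE 0.0609, limma adjusted p = 6.81e-11). The GTPase Tgtp1 rose by 2.75 and Zbp1, a sensor of left-handed nucleic acid, by 2.65. Ifi27l2a, an interferon-induced membrane protein, read 7.68, 7.33 and 7.21 in CTR and 10.11, 11.81 and 9.84 in OXP, so OXP 2 was highest, and its rise was 2.57 without that array. The gene not called, Epsti1, was at the control level in both groups.

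The genes of MHC class I presentation rose with them, 11 of 12 called higher and 0 lower, with a median of 1.66. H2-T23, a nonclassical class I heavy chain, read 6.39, 6.85 and 6.84 in CTR and 9.51, 9.99 and 9.47 in OXP. Nlrc5, the transactivator of class I genes, read 4.52, 4.53 and 3.93 in CTR and 7.11, 6.72 and 6.92 in OXP. The immunoproteasome subunit Psmb8 rose by 2.11, and H2-D1 by 1.95. Class I genes are near copies of each other, and the other probe sets of H2-D1 with signals above the control level changed by 1.77 and 2.24, none of them specific to the gene. The specific one had a mean signal of 3.26, within the range of the control level, so the rise of H2-D1 itself cannot be told from that of its copies. Lgals9, a galectin, rose by 2.15.

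Of 28 NF-kB targets and secreted cytokines, 10 rose (35.7%, against 17.5% of all genes) and 2 fell, with a median of 0.04, and 9 of the 28 were at the control level in both groups. Lif, a cytokine of the interleukin 6 family, read 5.28, 5.07 and 5.25 in CTR and 7.87, 7.38 and 7.37 in OXP, and the NF-kB inhibitor Nfkbia rose by 1.28. The chemokine Cxcl10, itself inducible by interferon, fell, with readings of 8.14, 7.91 and 8.18 in CTR and 7.36, 6.72 and 7.29 in OXP.

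The core of the interferon-stimulated response element, searched as GAAANNGAA on both strands, was in 44.7% of the 38 windows of interferon-stimulated genes, in 23.1% of the 13 of class I presentation and in 7.35% of those of all genes tested. The windows of Gbp2 (chr3:142620413-142620712, plus strand) and Ifit1 (chr19:34640639-34640938, plus strand) are shown for the 2 interferon-stimulated genes given array by array, with the matches in capitals. In Ifit1 3 matches lie within a short stretch and those next to each other share letters.
Gbp2: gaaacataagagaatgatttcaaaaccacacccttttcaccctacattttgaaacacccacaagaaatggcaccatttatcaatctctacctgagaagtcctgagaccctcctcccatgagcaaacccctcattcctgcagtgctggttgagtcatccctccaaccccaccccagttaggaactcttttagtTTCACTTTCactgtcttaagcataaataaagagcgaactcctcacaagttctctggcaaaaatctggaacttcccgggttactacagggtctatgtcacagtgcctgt
Ifit1: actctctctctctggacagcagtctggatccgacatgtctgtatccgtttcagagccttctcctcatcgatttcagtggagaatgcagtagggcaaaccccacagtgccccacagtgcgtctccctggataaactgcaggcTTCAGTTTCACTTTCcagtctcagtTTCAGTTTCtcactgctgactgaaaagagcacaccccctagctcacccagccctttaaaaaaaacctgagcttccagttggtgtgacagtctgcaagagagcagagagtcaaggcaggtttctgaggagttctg

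Genes of amino acid supply fell together. ATF4 is the transcription factor that cells use when amino acids run short or unfolded proteins build up. Of 28 genes of the ATF4 amino acid response, 22 fell and 2 rose, with a median of -1.56, and the median in OXP 1, 2 and 3 was -1.78, -1.09 and -1.72, so OXP 2 moved least. Trib3, a pseudokinase induced by ATF4, read 8.38, 8.17 and 8.26 in CTR and 4.70, 5.56 and 4.98 in OXP, a fall of 3.19 (SE 0.158, limma adjusted p = 4.11e-09). Slc7a5, the exchanger that imports leucine, read 9.48, 9.40 and 9.50 in CTR and 6.45, 7.09 and 6.03 in OXP, a fall of 2.94 (SE 0.192, limma adjusted p = 5.55e-08). Pck2, the mitochondrial phosphoenolpyruvate carboxykinase, fell by 2.80. The 2 that rose, singled out after their values were seen, were Vldlr (1.23) and Sesn2 (0.35), and Sesn2 also stands on the p53 list.

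Enzymes that make serine, glycine and other amino acids were part of this fall. Shmt2, which turns serine into glycine in mitochondria, read 8.49, 8.30 and 8.34 in CTR and 4.46, 5.90 and 5.67 in OXP. Shmt2 was lowest in OXP 1, and its change was -3.03 with all arrays and -2.59 without OXP 1. Of 11 genes of serine and folate metabolism, 10 fell and 0 rose, with Mthfd1l at -2.31, Psph at -2.15 and Psat1 at -2.05. Of 13 genes of glutamine metabolism, 9 fell and 0 rose, led by Slc7a5, the alanine transaminase Gpt2 (-2.55), asparagine synthetase Asns (-1.98) and Aldh18a1 (-1.67). The branched-chain transaminase Bcat1 fell by 2.86.

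Aminoacyl-tRNA synthetases, which load amino acids onto tRNA, fell in 16 of 17 cases and rose in 0, with a median of -1.21. Gars, the synthetase for glycine, fell by 1.53 and Iars, that for isoleucine, by 1.43. Vars, that for valine, read 8.02, 8.01 and 8.04 in CTR and 4.61, 6.76 and 6.54 in OXP, so OXP 1 stood well below the others, and the change was -2.05 with all arrays and -1.37 without OXP 1. Farsb, a synthetase subunit for phenylalanine, fell by 1.43, and a further probe set with a mean signal of 6.05 gave -1.50.

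The ATF4 element was searched as TGATGNAA on both strands, a string added after this list had been seen to fall. It was in 27.6% of the 29 windows of the ATF4 list, in 36.4% of the 11 of the synthetases and in 2.75% of those of all genes tested. Trib3 (chr2:152344011-152344310, minus strand) and Asns (chr6:7693160-7693459, minus strand) are shown as 2 genes of the fall whose windows hold it, with the match in capitals.
Trib3: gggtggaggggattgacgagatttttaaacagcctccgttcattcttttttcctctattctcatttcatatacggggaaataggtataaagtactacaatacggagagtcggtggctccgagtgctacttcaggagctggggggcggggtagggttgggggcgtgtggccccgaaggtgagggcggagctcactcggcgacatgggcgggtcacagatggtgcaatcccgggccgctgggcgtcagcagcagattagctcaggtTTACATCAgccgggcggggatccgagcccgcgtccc
Asns: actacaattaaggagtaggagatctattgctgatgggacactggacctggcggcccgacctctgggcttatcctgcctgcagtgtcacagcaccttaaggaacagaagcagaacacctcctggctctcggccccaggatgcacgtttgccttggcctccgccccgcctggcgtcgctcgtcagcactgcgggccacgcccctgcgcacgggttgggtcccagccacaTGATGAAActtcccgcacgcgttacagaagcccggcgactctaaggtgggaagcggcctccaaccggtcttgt

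Chaperones of the endoplasmic reticulum fell as well, 21 of 24 called lower and 0 higher, with a median of -1.03. The median in OXP 1, 2 and 3 was -1.20, -0.73 and -1.23. Sdf2l1, a cofactor of protein folding in the reticulum, read 9.43, 9.11 and 9.19 in CTR and 6.09, 7.06 and 6.36 in OXP. Creld2, a stress-inducible protein of the same compartment, read 10.37, 10.25 and 10.16 in CTR and 7.51, 8.17 and 7.16 in OXP, and the oxidase Ero1a and the stress protein Herpud1 fell by 1.80 and 1.78. OXP 2 was the highest of the drug-treated arrays for Sdf2l1 and Creld2, though still below every CTR array. Cytosolic heat shock proteins did not share this direction, with Hspa1b at 2.73 and Hsp90aa1 at -0.83. Of 15, 5 were higher (33.3%) and 4 lower (26.7%), against 17.5% and 13.9% of all genes.

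Genes that build ribosomes fell while the ribosomal proteins stayed near their level. Of 34 genes of ribosome biogenesis, 31 fell and 0 rose, with a median of -0.89, led by Nop58 (-2.03), Dkc1 (-1.94), Nop16 (-1.65) and Taf1d (-1.65). Nop58, a core protein of nucleolar particles, read 9.22, 9.09 and 9.14 in CTR and 6.30, 7.69 and 7.39 in OXP, with OXP 1 lowest. Of 67 cytosolic ribosomal proteins, 14 fell and 2 rose, with a median of -0.06, and without OXP 2 there were 7 falls and 1 rise. The largest rise was that of Rps27l (0.62), a p53-inducible paralog, and Rpl3 fell by 0.52. The regulator Myc read 8.79 ± 0.10 in CTR and 7.83 ± 0.19 in OXP (mean and SD, n = 3), a fall of 0.96. The groups did not overlap for Myc, as for 38.1% of all genes. The Myc antagonist Mxd4 rose by 2.06. This rise was not called with the probe set specific to the gene, which gave 0.52 at a mean signal of 4.74.

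Glycolytic genes and HIF-1 targets, which answer low oxygen, were lower. Of 23 HIF-1 targets, 13 fell and 0 rose, with a median of -0.60, and of 15 glycolytic genes 8 fell and 3 rose, with a median of -0.39. Hk2, the inducible hexokinase, read 7.81, 7.81 and 7.80 in CTR and 5.74, 5.40 and 5.63 in OXP, a fall of 2.22 (SE 0.119, limma adjusted p = 8.48e-09). Its constitutive counterpart Hk1 rose by 1.09. P4ha2, which hydroxylates collagen, fell by 1.48 and Ndrg1 by 1.30, and the median of the glycolytic list was -0.81 in OXP 2 against -0.37 in OXP 1 and -0.22 in OXP 3.

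Genes of the lysosome, autophagy, fatty acid oxidation and respiratory complex I rose more often than they fell. Those of the proteasome and the TCA cycle, given at the end, fell more often with all arrays. Of 21 lysosomal genes, 19 rose and 0 fell, with a median of 0.93. The protease Ctsd read 8.49, 8.41 and 8.41 in CTR and 9.82, 10.04 and 10.12 in OXP, and Atp6v1a, a subunit of the proton pump, rose by 1.41. The hydrolase Gaa read 6.21, 6.28 and 6.22 in CTR and 6.65, 8.01 and 7.69 in OXP, so OXP 1 rose least. Of 19 autophagy genes, 12 rose and 1 fell, or 12 and 0 without OXP 2, led by Map1lc3a (1.21) and the kinase Ulk1 (1.11). Of 18 genes of fatty acid oxidation, 11 rose and 1 fell, with the carnitine carrier Slc25a20 at 1.38 and Cpt1a at 0.76. Of 33 genes of respiratory complex I, 19 rose and 0 fell, with a median of 0.31. Without OXP 1 the counts were 15 and 1 and the median 0.23, and without OXP 2 they were 21 and 0. FoxO and insulin signalling gave 7 rises and 1 fall in 18, or 6 and 2 without OXP 2, with Sesn3 at 1.65 and Foxo3 at 1.43.

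Immediate early genes, which answer growth factors and stress within minutes, were raised. Of 24 immediate early genes and feedback genes of the kinase ERK, 17 rose and 1 fell, with a median of 1.04. Fos read 4.26, 4.84 and 4.01 in CTR and 8.47, 7.24 and 7.35 in OXP, a rise of 3.32 (SE 0.307, limma adjusted p = 1.5e-06). The phosphatase Dusp1 read 7.02, 7.65 and 7.40 in CTR and 10.34, 10.25 and 9.94 in OXP, and Egr1 read 7.94, 9.07 and 8.86 in CTR and 11.00, 11.35 and 10.72 in OXP. The groups did not overlap in any of the 3, as was the case for 38.1% of all genes. Ccn1, a secreted target of YAP, rose by 2.05, and of 14 genes of the serum response and YAP, 6 rose and 0 fell, or 5 and 1 without OXP 2.

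Genes of lipid synthesis depended on 1 array. Of 19 genes of cholesterol synthesis and uptake, 8 rose and 0 fell, with a median of 0.50, but without OXP 2 the counts were 6 and 3 and the median 0.19. The median of the list was 1.11 in OXP 2, 0.27 in OXP 1 and 0.09 in OXP 3. Cyp51, a demethylase of sterol synthesis, read 8.45, 8.68 and 8.49 in CTR and 8.87, 10.03 and 8.85 in OXP, a rise of 0.71 whose call was lost without CTR 1 or CTR 3, and Insig1, which retains the sterol sensor in the reticulum, read 8.76, 9.37 and 9.16 in CTR and 9.87, 10.36 and 9.74 in OXP. Fatty acid synthesis gave 4 rises and 0 falls in 12, and 4 rises and 3 falls without OXP 2. Acss2, which makes acetyl-CoA from acetate, rose by 1.90 with all arrays and 1.60 without OXP 2.

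Genes listed for platinum transport and binding moved in both directions. Of 17, 6 rose (35.3%, against 17.5% of all genes) and 2 fell, or 3 without OXP 1, with a median of 0.02, and 6 of the 17 were at the control level in both groups. The multidrug exporter Abcb1b read 6.77, 7.04 and 6.83 in CTR and 8.33, 8.15 and 8.19 in OXP, a rise of 1.35 (SE 0.087, limma adjusted p = 4.94e-08). Another probe set of Abcb1b changed by -0.06 at a mean signal of 4.18, above the control level. The paralog Abcb1a rose at least 1.27-fold. Export of platinum was not measured. The exporter Abcc1 fell by 0.70. The copper chaperone Atox1 rose by 0.50, and a further probe set with a mean signal of 8.80 gave 0.46.

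Genes of the matrix were among the remaining changes. Of 29 matrix genes, 9 rose (31.0%) and 3 fell (10.3%), against 17.5% and 13.9% of all genes. The largest rises were those of Col6a1 (1.43), Loxl3 (1.30), Timp2 (1.21) and Timp3 (1.20). Other probe sets of Timp2 changed by 1.09, 0.14, 0.14 and 0.08, at mean signals of 10.12, 9.20, 8.06 and 4.01. With the average of its probe sets Timp2 changed by 0.53 and was not called (limma adjusted p = 0.144). Of 10 matrix metalloproteinases, 20.0% rose and 10.0% fell, near the shares of all genes. The gelatinase Mmp2 rose by 1.53 and its membrane-bound activator Mmp14 by 1.45. Mmp9, called lower (-0.30), was at the control level in both groups, so no size can be given.

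**Figure D3:**
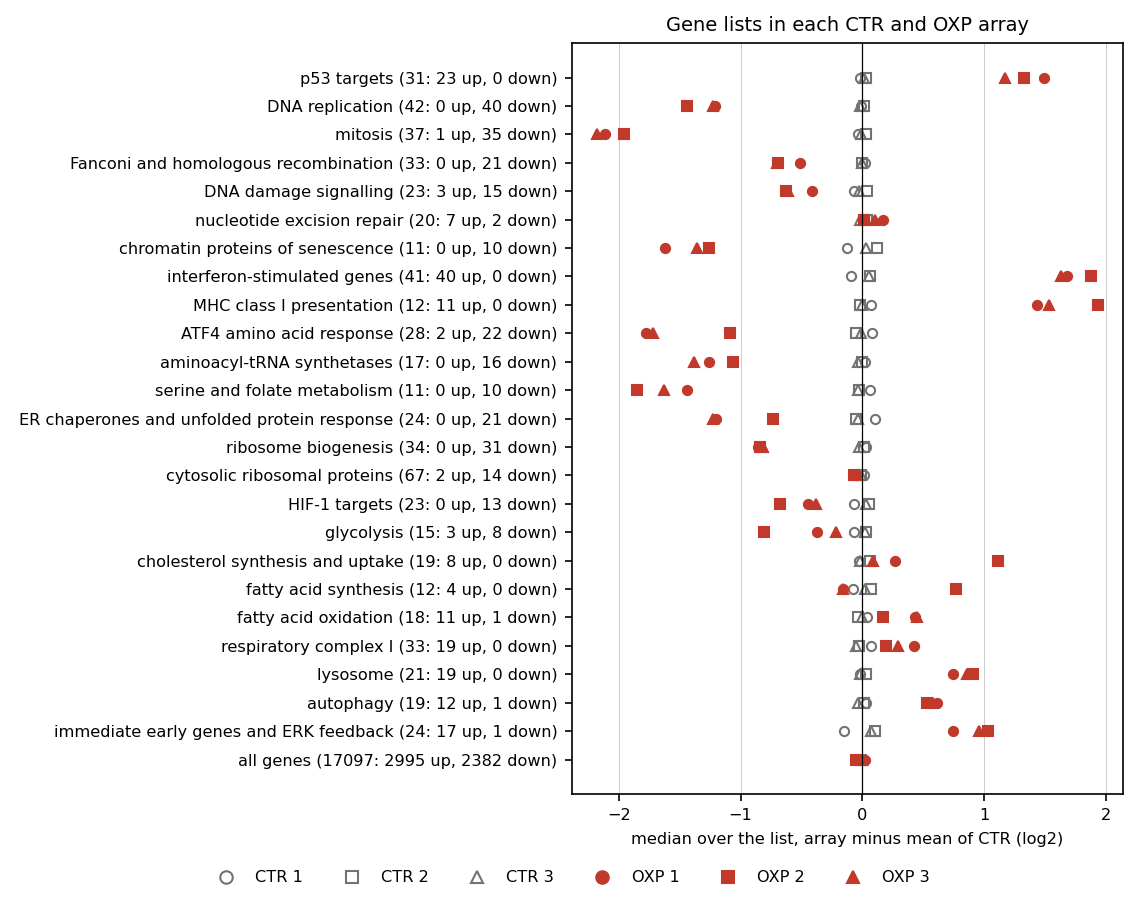
Median over each gene list of the array's log2 signal minus the CTR mean, with 1 symbol per CTR array (open) and OXP array (filled) and the number of genes measured and called in brackets. The 3 OXP arrays stand together for p53 targets, mitosis and interferon-stimulated genes, and OXP 2 alone is high for cholesterol and fatty acid synthesis.

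Genes were also compared by the length of their transcribed region. Over 5 classes of gene span of about equal size, the median change was -0.02, -0.02, -0.01, 0.00 and -0.01 from shortest to longest. The median span was 3.35 kb in the shortest class and 118 kb in the longest. From shortest to longest, 14.3%, 16.6%, 19.6%, 21.5% and 16.2% of genes rose. The shares that fell were 11.6%, 14.7%, 15.4%, 15.4% and 13.0%. Among genes above the median signal, 31.0%, 30.6%, 32.5%, 34.4% and 30.2% rose in the same order. The shares that fell were 23.8%, 26.1%, 25.3%, 22.5% and 20.5%.

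The same drug was also given to starved cells, as STS+OXP minus STS, on 6 arrays that share none with OXP minus CTR. There 3764 genes (22.0%) were called, 1854 up and 1910 down. Of the genes called in full medium, 52.2% were called in the same direction in starved cells, and of those called in starved cells, 74.5% were called in the same direction in full medium, with 2806 genes shared and 87 called in opposite directions. OXP 2 resembled the STS+OXP arrays, as given above. The difference between the effects was called for 1417 genes (8.29% of those tested), with the effect higher in starved cells for 2.53% and lower for 5.76%. Of the 2995 genes that rose in full medium the difference was called for 810 (27.0%), in 803 of them towards a smaller rise or a fall in starved cells, and of the 2382 that fell it was called for 441 (18.5%), in 370 of them towards a smaller fall or a rise. The difference is computed with the 6 arrays that also gave the calls in full medium, so these directions are in part set by that choice of genes.

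For genes of p53 and the cell cycle the median effects lay close together in both media. For p53 targets the median effect was 1.17 in full medium and 1.39 in starved cells. The difference was called for 8 of 31, or 10 without OXP 2. For mitosis the median effect was -2.10 and -2.03, with a called difference for 2 of 37, or 11 without OXP 2. For replication it was -1.32 and -1.62, with 12 of 42 called, all of them a stronger fall in starved cells. Without OXP 2 the difference was called for 17 replication genes, lower in starved cells for 15 and higher for 2. Over all genes the difference was called for 8.29%, a share that p53 targets and replication exceeded. Cdkn1a rose by 2.95 and 2.91 (difference -0.04, limma adjusted p = 0.861).

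Interferon and amino acid genes differed between the media. Interferon-stimulated genes had a median effect of 1.72 in full medium and 0.14 in starved cells, with a called difference for 37 of 41, all lower in starved cells, and the same count without OXP 2. MHC class I presentation had 1.66 and 0.16, with 11 of 12 called. The median level of the interferon list was 7.06 in CTR, 8.59 in OXP, 8.70 in STS and 8.65 in STS+OXP, so the groups other than CTR stood close together. Gbp2 was at 5.64 in CTR, 8.70 in OXP, 8.17 in STS and 8.57 in STS+OXP, and its effect was smaller in starved cells by 2.66 (limma adjusted p = 3.26e-07).

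Further lists that fell or rose in full medium also differed. The ATF4 list had a median effect of -1.56 in full medium and -0.25 in starved cells, with a called difference for 23 of 28, and the chaperones of the reticulum -1.03 and 0.16, with 21 of 24. Trib3 was at 8.27 in CTR, 5.08 in OXP, 5.82 in STS and 5.67 in STS+OXP. Immediate early genes had 1.04 and 0.31, with 12 of 24 called, lysosomal genes 0.93 and 0.36, with 10 of 21, and ribosome biogenesis -0.89 and -0.49, with 5 of 34, or 9 without OXP 2.

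**Figure D4:**
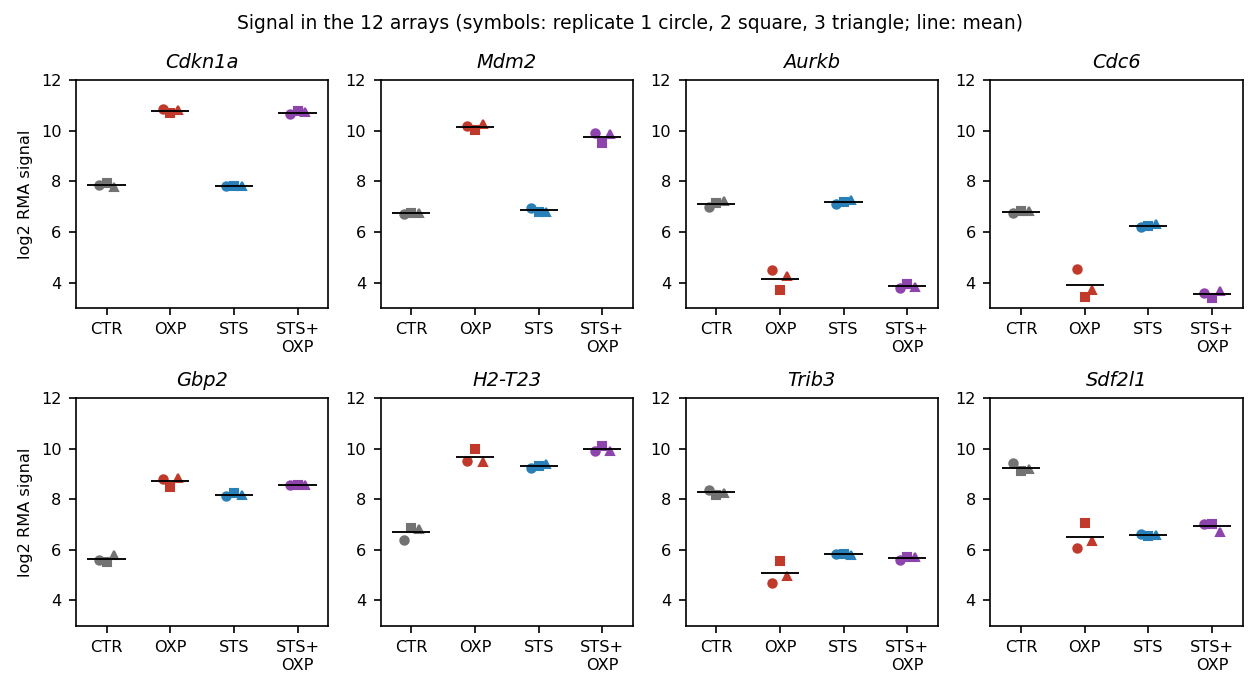
Log2 RMA signal of 8 genes in the 12 arrays by group, with 1 symbol per array and a line at the group mean. Cdkn1a, Mdm2, Aurkb and Cdc6 moved with the drug in both media, while Gbp2, H2-T23, Trib3 and Sdf2l1 stood in STS close to OXP.

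**Figure D5:**
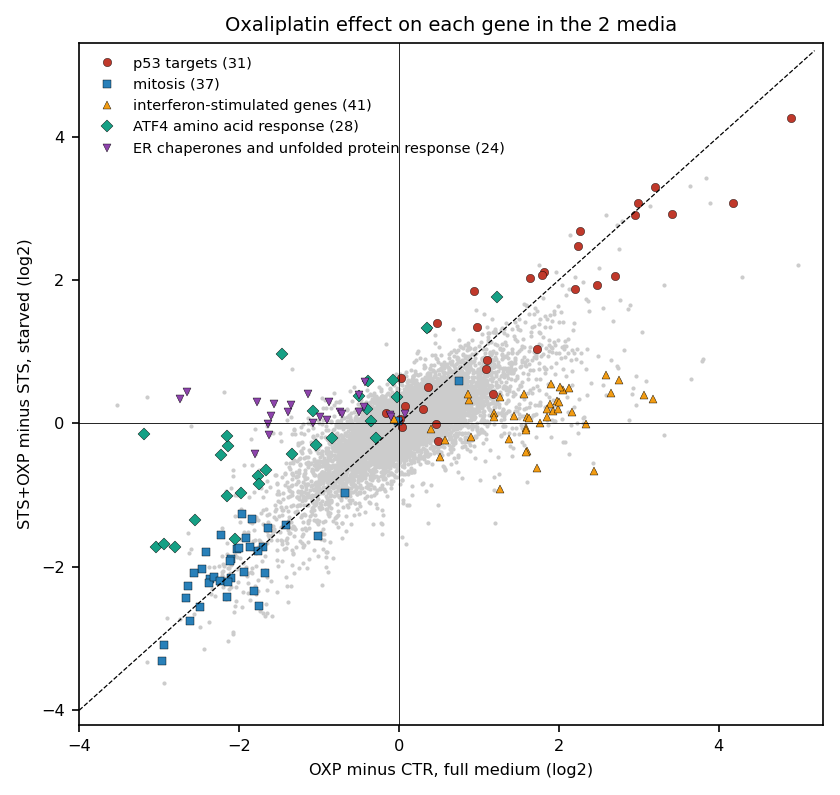
Change of each gene with oxaliplatin in full medium (horizontal, log2) and in starved cells (vertical, log2), with 5 gene lists in colour and equal effects along the dashed line. Targets of p53 and mitotic genes lie along the line, interferon-stimulated and reticulum genes lie near 0 on the vertical axis, and the 28 ATF4 genes lie above the line.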

How the data were processed

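Total RNA of CT26 cells had been hybridized to Affymetrix mouse 3′ arrays, and the deposited values are log2 signals per probe set, made by the authors with RMA in R 3.02 according to the submitters' processing notes. The table held 45141 probe sets, of which 28898 carried 1 gene symbol in the platform annotation, 551 several, 15588 none and 104 were controls. Each of 17097 genes was represented by its single-symbol probe set of highest mean signal across the 12 arrays. Groups were taken from the sample labels. Differences were tested with limma 3.58.1 in R 4.3.3 on 4 group means (8 residual degrees of freedom, 5.05 prior), two-sided, with Benjamini-Hochberg adjustment over all genes, after the procedure had been tested on simulated data. Lists were described by counts and medians, without a test. A level at or below the brightest of 22 control probe sets without a target was treated as a bound, so that a fold against it reads "at least". Promoter windows came from RefSeq and were scanned with Python 3.11.15. Arrays give no read depth, and 3 per group limit the precision.

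Members and lists were chosen with earlier results of these data known. The genes named were the 12 strongest rises and 12 strongest falls among called genes without overlap between groups, leaving out clones and unnamed models, up to 4 called members per list with the largest change, Cdkn1a, Mdm2, and the 6 genes with the smallest adjusted p for the difference between media, and others are named as singled out after their values were seen, as list exceptions or as markers. Alternatives varied normalization, probe set choice, filter, variance model, array weights, samples, a replicate block, the threshold and the test, and left out arrays.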

Additional observations from a re-analysis of the deposited data

Results flagged for a closer look

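The effect of oxaliplatin differed between starved cells and full medium in the interaction term of limma (adjusted p from 1.01e-07 to 0.0497) for 88 of the genes named in the text. The values are the effect in starved cells minus that in full medium, on the log2 scale, 3 arrays per group. Among interferon-stimulated genes, MHC class I genes and cytokines the difference was -2.66 for Gbp2, -1.58 for Ifit1, -2.14 for Tgtp1, -2.22 for Zbp1, -2.84 for Ifi27l2a, -2.31 for H2-T23, -2.19 for Nlrc5, -1.95 for Psmb8, -1.27 for H2-D1, -0.60 for Lif, -1.13 for Nfkbia and -1.30 for Cxcl10. Among genes of amino acid supply and tRNA charging the difference was 3.04 for Trib3, 1.26 for Slc7a5, 1.08 for Pck2, 0.98 for Sesn2, 1.32 for Shmt2, 1.14 for Psph, 0.43 for Psat1, 1.20 for Gpt2, 1.00 for Asns, 1.02 for Aldh18a1, 0.81 for Gars, 0.57 for Iars and 0.72 for Farsb. Among chaperones the difference was -2.78 for Cryab, 3.08 for Sdf2l1, 3.08 for Creld2, 1.38 for Ero1a, 2.08 for Herpud1 and -1.92 for Hspa1b. Among immediate early and serum response genes the difference was -3.47 for Fos, -1.79 for Dusp1, -1.84 for Egr1 and -1.29 for Ccn1. Among p53 targets, cell cycle, nucleotide, repair and death genes the difference was -0.65 for Dcxr, -0.50 for Mdm2, -1.11 for Trp53inp1, 0.92 for Bbc3, 0.40 for Bcl2, -0.74 for Casp12, -0.55 for Casp6, -0.77 for Ercc3, 2.58 for Gadd45a, -0.71 for Pola1, -1.10 for Rrm2, -1.31 for Rb1, -1.35 for Rbl2, -0.87 for E2f7, -0.85 for E2f8, -0.76 for Cdkn2c, 0.66 for Cdkn3, -0.84 for Uhrf1, 0.83 for Myc and -0.64 for Mxd4. Among metabolic, lysosomal and transport genes the difference was -2.26 for Txnip, 0.77 for Hk2, 1.24 for P4ha2, 1.16 for Ndrg1, -0.49 for Ctsd, -0.63 for Atp6v1a, -0.63 for Map1lc3a, -0.79 for Ulk1, -1.57 for Sesn3, -0.73 for Foxo3, -2.09 for Acss2, -0.62 for Abcb1b, -0.60 for Abcb1a, 0.38 for Abcc1, -0.80 for Idh1, -0.49 for Nfe2l2, 1.31 for Hmox1, 0.74 for Slc2a1 and -1.42 for Arrdc3. Among matrix genes the difference was -1.32 for Col6a1, -1.16 for Loxl3, -0.68 for Timp2, -0.97 for Timp3, -0.74 for Mmp2 and -0.61 for Mmp14. Among genes on none of these lists the difference was -3.03 for Csprs, -2.92 for Aldh1a1, -1.39 for Pik3r3, -2.91 for Ogn, 3.78 for Stbd1, 3.53 for Car6, -2.16 for Lgals9 and 1.15 for Bcat1. The call of the difference was lost without OXP 1 or without OXP 2 for Mdm2, Bcl2, E2f8, Pck2 and Abcc1 (5 of 88). At least 1 group was at the control level for Cryab (CTR), Csprs (CTR), Car6 (STS, OXP, STS+OXP), Bcl2 (OXP), Pola1 (STS+OXP), E2f7 (STS+OXP) and Abcb1a (CTR), so the values of these genes are differences of signals that are bounds, and no size of the difference can be read from them.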

How the results depend on the processing

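The counts of calls kept within 1.5 times under the other normalizations, probe set choices, filter, variance models, array weights, sample sets and the methods' test without adjustment, with 2293 to 3248 genes higher and 1865 to 2540 lower in OXP, 2967 to 5368 called in starved cells and 1153 to 1728 for the difference between media. Leaving out 1 array at a time gave 2586 to 3047 higher, 2080 to 2546 lower, 2927 to 4526 in starved cells and 955 to 1756 for the difference. A fold of at least 2 as well left 656 higher, 529 lower, 588 in starved cells and 362 for the difference, and the methods' unpaired test after Benjamini-Hochberg adjustment gave 570, 464 and 2169 for the first 3. That test uses each gene's own spread from 3 arrays a group.

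Whether the replicate numbers pair the samples cannot be told from these arrays. Deviations of CTR and OXP arrays with the same number correlated at -0.0706, 0.0672 and 0.0369, and those with different numbers at -0.1916 to 0.1449. With 3 arrays a group, such values cannot exclude a pairing. With the number as a block, 2927 genes were higher, 2324 lower, 3661 called in starved cells and 1250 for the difference.

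Of 149 genes named by the rule given with the processing, 82 lost their call under the methods' adjusted test and 13 under any of 22 other settings, and 0 did so under the replicate block. Probe sets specific to the gene gave -0.07 for Atox1, 0.00 for Cd80, 0.21 for H2-D1, -0.22 for Farsb and -0.09 for Idh2, all at mean signals no higher than the control range (2.40 to 3.26), so these settings bear on none of the genes. For Mxd4 and the serum response factor gene Srf they gave 0.52 and -0.14, at mean signals of 4.74 and 5.11. Calls were also lost for Timp2 and Cyp51 with the average of probe sets, for Cyp51 with the trended robust variance, for Cyp51, Bcl2l11, Cd68 and S100a4 with only the 6 CTR and OXP arrays, and for Cyp51, Bcl2 and Mmp9 without OXP 1 and OXP 2 together. The calls lost without 1 array are given with the genes. Signals at the control level limit single genes to bounds. Transcript length in place of span was not run, for want of lengths in the tables used here.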

Other observations

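The remaining gene lists moved little or in both directions, beside 17.5% of all genes that rose and 13.9% that fell. Of 74 mitochondrial ribosomal proteins, 22 fell and 8 rose, or 23 and 5 without OXP 1, with a median change of -0.07, and of 32 proteasome genes 7 fell and 1 rose, with a median of -0.10. Genes of the TCA cycle split, with 8 of 23 lower and 3 higher, and without OXP 2 the balance turned to 5 lower and 6 higher. The cytosolic isocitrate dehydrogenase Idh1 read 7.23, 7.57 and 7.36 in CTR and 8.32, 8.83 and 8.18 in OXP, whereas its mitochondrial counterpart Idh2 read 8.11, 8.12 and 8.23 in CTR and 7.13, 7.07 and 6.90 in OXP. The paralogs thus moved in opposite directions, and the fall of Idh2 was 1.12, while its specific probe set had a mean signal of 3.16, below the control level, where a change cannot be read. Respiratory complexes II to V gave 11 rises and 3 falls in 36, with a median of 0.15, and 18 and 2 without OXP 2.

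Among 20 genes of NRF2 and antioxidant defence, 6 rose and 7 fell. The factor itself, Nfe2l2, read 8.87, 8.94 and 8.87 in CTR and 9.90, 9.61 and 9.83 in OXP, and its target Hmox1, which degrades heme, read 6.96, 6.98 and 6.80 in CTR and 6.36, 5.21 and 6.27 in OXP. The factor was thus higher and this target lower in OXP, without overlap for either, as for 38.1% of all genes. Of 14 transporters of glucose and lactate, 3 fell and 1 rose, with the lactate carrier Slc16a1 at -0.82 and the glucose carrier Slc2a1 at -0.60. Of 8 MondoA targets and arrestin-domain genes, Txnip and Arrdc3 rose (25.0%, against 17.5% of all genes), the second by 2.27, and 0 fell.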
